A study of Drosophila melanogaster with 2 samples.

Results

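Binding of the zinc finger protein CG11696 was examined at 10 *Drosophila melanogaster* genes of muscle and heart, chosen by name. Of these, 5 are determinants of mesoderm, heart and muscle (tin, bap, twi, Mef2 and how) and 5 encode structural proteins of the contractile apparatus (sls, Mhc, Act87E, Act57B and Tm1). They belong to 13968 protein-coding genes annotated on 7 chromosomes. The study has 1 group of 2 biological replicates. Flies carried a transgene insertion for a CG11696-eGFP fusion, whole embryos were collected over 0 to 24 h, and chromatin was precipitated with an antibody against the green fluorescent tag. No other condition was compared. The sources used here do not name the promoter that drives the transgene. Whole embryos hold all tissues, so a peak at a muscle gene cannot be assigned to muscle cells. A summit, the position of highest signal in a peak, was counted for a gene where it lay in the gene body or within 5 kb of it. With this window, 7 of the 10 genes had a summit in the conservative thresholded list, against 33.2% of all protein-coding genes (4642 of 13968).

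Muscle of the fly embryo forms from the mesoderm, which twi, a basic helix-loop-helix factor, sets up. The homeodomain factor Tin then specifies heart and dorsal mesoderm, and the homeodomain factor Bap specifies visceral mesoderm. Mef2, a MADS-box factor, switches on differentiation genes in all muscle types, and How, an RNA-binding protein of the STAR family, acts in muscle and tendon development. Structural genes are expressed later. Sls is the fly titin, a protein of the sarcomere, and Mhc is the myosin heavy chain of muscle. Act87E and Act57B are muscle actins, and Tm1 is a tropomyosin, which lies along the actin filament.

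The conservative summits near tin, how, sls, Act87E and Tm1 are shown first as sequence, because they carry the calls at these genes. The windows at Mef2 and Act57B are not printed. Each line gives 1 summit with 50 bp to either side, on the plus strand of dm6, from the RefSeq copy of that assembly, and capitals mark runs of 8 or more A or T. The tin window is chr3R:21378744-21378844, the how window chr3R:22049253-22049353 and the sls window chr3L:2115815-2115915. The Act87E windows are chr3R:13425666-13425766, before the gene, and chr3R:13428473-13428573, behind it. The Tm1 window is chr3R:15275374-15275474.
tin: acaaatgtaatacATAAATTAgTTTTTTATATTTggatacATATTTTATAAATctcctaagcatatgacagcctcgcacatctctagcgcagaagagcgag
how: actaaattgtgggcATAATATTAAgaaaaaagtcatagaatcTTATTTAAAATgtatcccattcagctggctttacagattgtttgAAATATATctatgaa
sls: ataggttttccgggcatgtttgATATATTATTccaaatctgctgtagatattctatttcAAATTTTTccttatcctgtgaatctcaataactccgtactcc
Act87E, before the gene: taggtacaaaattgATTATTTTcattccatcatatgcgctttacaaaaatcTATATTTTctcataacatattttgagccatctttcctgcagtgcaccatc
Act87E, behind the gene: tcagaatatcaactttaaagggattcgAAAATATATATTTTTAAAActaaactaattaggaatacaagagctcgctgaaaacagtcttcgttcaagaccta
Tm1: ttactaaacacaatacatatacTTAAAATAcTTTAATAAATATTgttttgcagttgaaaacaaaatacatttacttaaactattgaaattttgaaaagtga

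All 6 printed windows hold at least 1 such run, but 3 of the 5 windows not printed hold none. Together 8 of the 11 windows at the members had one, against 72.1% of all conservative windows. The longest printed run, of 19 bases, is behind Act87E. The Tm1 window is the richest in A and T, at 81.2%, against 56.4% in windows of the same width centred 300 bp to either side. The window behind Act87E had 70.3%, against 47.0% in its flanks. The sls window differed least from its surroundings among the printed ones, with 66.3% against 64.4%.

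The 7 lists used here differ in depth of calling, and signals of different genes or summits were compared only within a list. At the same summit, values from the 2 ranked replicate lists were also set against each other, without rescaling. The conservative thresholded list, made from both replicates, had 3143 peaks on the 7 chromosomes with a median signal of 107. Its ranked counterpart had 95508 peaks with a median of 22.8. The optimal thresholded list had 3727 peaks. Replicate 1 had 2078 thresholded and 49312 ranked peaks, and replicate 2 had 2191 and 122385. Signal is peak strength as the authors' caller reported it, and values in the replicate lists are on a lower scale than pooled ones. A score of at least 830 on a scale to 1000, which rises with reproducibility (IDR), marked every thresholded peak. The sources used here give no sequencing depth. A gene without a thresholded summit had none that passed the threshold of that list at this depth, which does not show that signal was absent. The 2 replicates were not copies of each other, since their lists differed in length and values. The labels call them biological replicates without saying whether the embryos were collected separately.

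Gene length affects how often a window of this kind catches a summit. Among protein-coding genes with bodies under 5 kb, 28.6% had a conservative summit, and 53.7% of those over 20 kb did. Of the 4 members under 5 kb, tin, Act87E and Act57B had one and bap did not. Of the 6 members over 20 kb, Mef2, how, sls and Tm1 had one, and twi and Mhc did not. The long members therefore stood at 4 of 6 against 53.7%, and the short ones at 3 of 4 against 28.6%, in counts too small to call either particular to muscle genes. The merged windows of the 10 genes cover 380.4 kb and held 11 conservative summits, or 2.89 per 100 kb, against 2.29 per 100 kb over the 7 chromosomes. The 11 include a weak summit of Mef2 that overlaps a stronger peak, and 10 remain without it. The density over the chromosomes was likewise not reduced for overlapping peaks. Ranked summits numbered 314, or 8.25 per 10 kb, against 6.94 over the chromosomes.

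**Figure D1:**
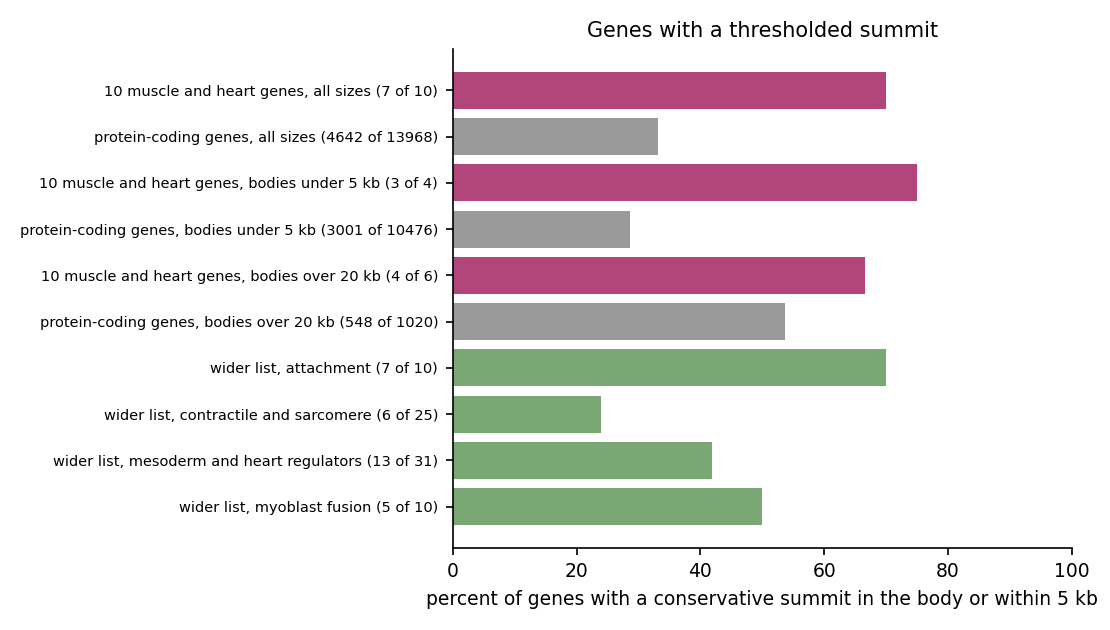
Percent of genes with a conservative summit in the body or within 5 kb (horizontal axis), for the 10 muscle and heart genes above all protein-coding genes at the same body length, then for the 4 roles of a wider muscle list. Counts stand beside each bar, and the share of all protein-coding genes is 53.7% for bodies over 20 kb and 28.6% for bodies under 5 kb.

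Fewer members, and a smaller share of all genes, had a summit in the list of a single replicate. In the thresholded list of replicate 1, 5 members had a summit, against 26.6% of protein-coding genes. In that of replicate 2, 6 did, against 26.9%, and the extra gene was Act87E. Both replicates held a thresholded summit at tin, Mef2, how, sls and Tm1, which is 5 of 10 against 22.2% of genes of all lengths. The Tm1 summit lay nearest to a start of CG4338 in both replicates. In replicate 2, the only one at Mef2 lay nearest to a start of Pal1. With the optimal list the count was again 7, against 37.9%, but Act57B had none there and twi had one. Summits within 500 bp of the gene's own transcription start site (TSS) were found at tin, sls and Act87E, which is 3 of 10 against 10.1%. Genes whose own start was the protein-coding start nearest to a conservative summit numbered 6 of 10, against 14.5%, since the Tm1 summit lay nearer to another gene. The shares in this paragraph are not matched for gene length or number of starts, and 10 genes are too few to set muscle genes apart.

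**Figure D2:**
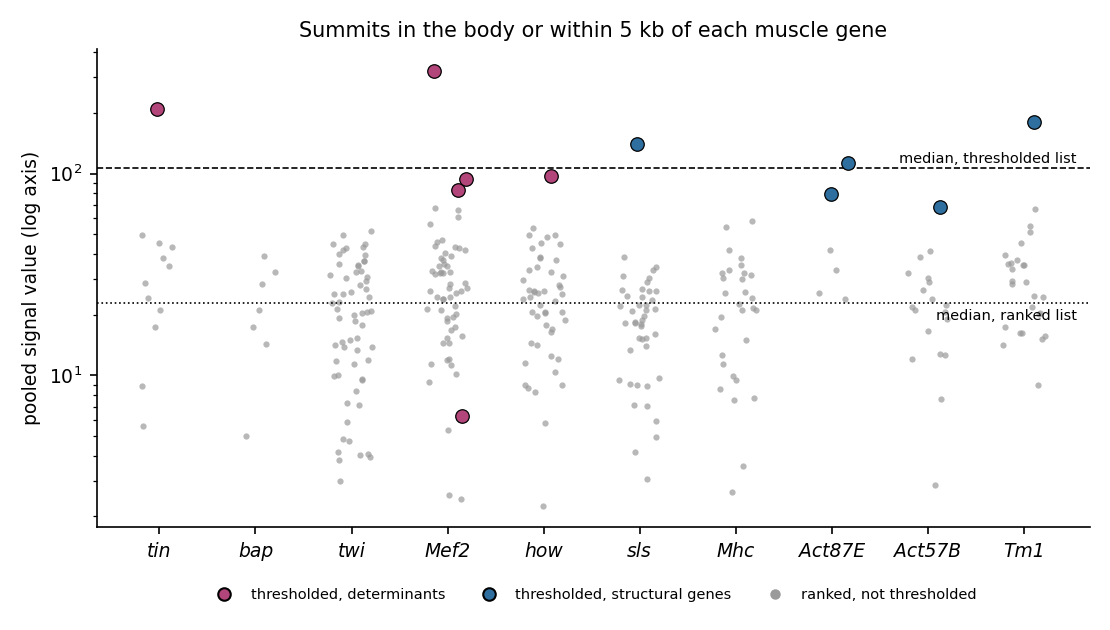
Pooled signal of every summit in the body or within 5 kb of each gene (vertical log axis, in units of the authors' caller), with thresholded summits large and coloured and the other ranked summits small and grey. Horizontal lines mark the medians of the thresholded list (107) and the ranked list (22.8), and the summits at Mef2 (322), tin (208), Tm1 (180), sls (140) and behind Act87E (113) lie above the upper line.

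The cardiac determinant tin (FBgn0004110) lies on the plus strand of 3R at 21378977 to 21381970, with a single annotated start. Its conservative summit, at 21378794, was 183 bp upstream of that start, in the interval before mod(mdg4), a chromatin protein gene on the other strand that starts 1393 bp away. The pooled signal was 208, at rank 578 of 3143. The matched peaks had a signal of 119 in replicate 1 and 92.3 in replicate 2 (mean 106 ± 18.9, SD, n = 2), both thresholded, with summits within 11 bp of the pooled one. No other determinant had a conservative summit within 500 bp of its own start. The other 11 ranked summits of its window had signals up to 49.5 and scores of at most 357.

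The next gene on the strand, bap (FBgn0004862, 3R 21388880 to 21390449), starts 6.91 kb past the end of tin and had no thresholded summit in any list. The windows of the 2 genes overlap by 3.09 kb and share 2 ranked summits. The highest of the 7 ranked summits at bap had a signal of 38.9 with a score of 42, lay 4027 bp past the gene and matched a peak of replicate 2 (31.0) with none in replicate 1. That placed bap at the 19.8 percentile of 13453 protein-coding genes by highest ranked signal, where tin was at the 89.9 percentile. The 2 neighbouring homeobox genes thus stood far apart in signal.

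The mesoderm gene twi (FBgn0003900) is annotated on 2R from 22985374 to 23048325, because 1 of its 3 starts lies 60.7 kb before the next. No conservative thresholded summit fell in this window. The highest of its 62 ranked summits, at 23038046, had a signal of 51.9 and a score of 656, with 26.5 in replicate 1 and 32.6 in replicate 2 (29.6 ± 4.34, n = 2). In the optimal list the same summit passed, with a score of 867. It lay 8.06 kb before the next start and 4897 bp from the start of CG42741, inside both genes, and 5 other protein-coding genes share the long window. Within 5 kb of the short body of 2.22 kb, from the next start on, 7 ranked summits remained, with signals up to 45.0 (score 148). Another of them, at 23042958 and 15 bp from a start of CG42741, had a lower signal of 42.7 but a score of 641, with 26.8 in replicate 1 and 30.9 in replicate 2 (28.8 ± 2.88, n = 2). No conservative or optimal thresholded summit lay within this short window.

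Mef2 (FBgn0011656, minus strand of 2R, 9913496 to 9958858) had 4 conservative summits, the most of any member. The strongest, at 9959951, had a pooled signal of 322, at rank 296, with 169 in replicate 1 and 141 in replicate 2 (155 ± 19.97, n = 2), both thresholded. It lay 1093 bp upstream of the start of Mef2 but inside the gene Pal1, which encodes an enzyme of peptide amidation, and 127 bp from a start of Pal1. The 5′ end of Pdrg1, on the minus strand between Mef2 and the summit, was 219 bp away. The peak call was 102 bp wide, against a median of 344 bp. It therefore cannot be assigned to Mef2 over Pal1 or Pdrg1 by position.

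The other 3 summits of Mef2 formed a cluster in intron 1 of 2 of its 11 transcripts, 4460 to 5131 bp upstream of an inner start. At 9949668 the signal was 93.5, with 50.5 in replicate 1 and 44.4 in replicate 2 (47.4 ± 4.28, n = 2), and replicate 1 alone had it thresholded. At 9949224 it was 82.4, with 50.3 in replicate 1 and 39.7 in replicate 2 (45.0 ± 7.54, n = 2), and neither replicate had it thresholded. The third, at 9949895, had a signal of 6.29 and overlaps the peak of 93.5, whose replicate peaks it also matches, so it adds no separate support. The intron of Mef2 carried signal in both replicates that mostly stayed under their own thresholds. Further ranked summits in the gene reached 67.8 (score 665, at 9935794) and 60.7 (score 714, at 9950308), and the first of them was in the optimal list with a score of 831.

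The gene how (FBgn0264491, plus strand of 3R, 22042191 to 22079321) had 1 conservative summit, at 22049303, in intron 2 of all 6 of its transcripts and 7112 bp past its single start. The signal was 97.2, at rank 1802, with 49.9 in replicate 1 and 44.2 in replicate 2 (47.1 ± 4.02, n = 2), both thresholded. A weaker ranked summit, 157 bp past the TSS, had a signal of 54.0 and a score of 574. At how the intron thus carried the stronger peak and the promoter one below the threshold. Of genes with a conservative summit, 27.5% had a highest signal as low as that of how or lower.

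**Figure D3:**
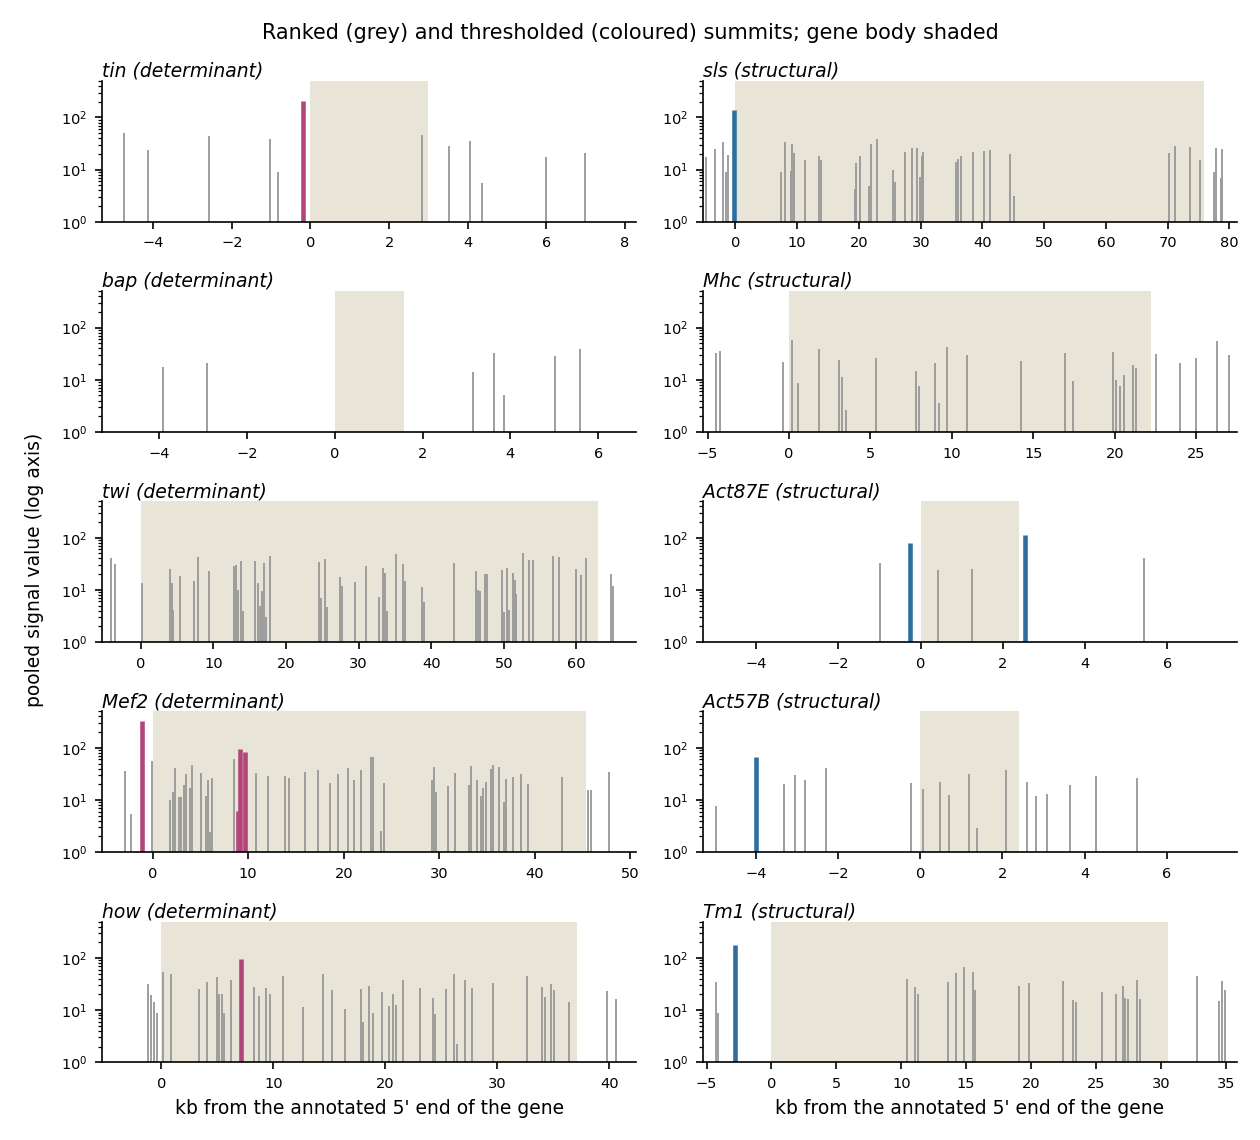
Position of every ranked summit (thin grey lines) and conservative thresholded summit (thick coloured lines) along each gene, in kb from the annotated 5′ end in the direction of transcription, with the gene body shaded and pooled signal on a vertical log axis. Determinants are in the left column and structural genes in the right one, and bap, twi and Mhc show grey lines alone.

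Among the structural genes, sls (FBgn0086906, minus strand of 3L, 2039681 to 2115611) had its conservative summit 254 bp upstream of the single start that its 13 transcripts share. The signal at 2115865 was 140, at rank 1070, with 66.3 in replicate 1 and 61.8 in replicate 2 (64.1 ± 3.15, n = 2). Both replicates had it thresholded, with the summit at the same base in both. The neighbour upstream is zormin, another sarcomere gene on the same strand, which ends 1601 bp away. All other ranked summits of sls, whose body is 75.9 kb long, had signals of at most 38.4. Signal at the titin gene was thus highest at its promoter.

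Act87E (FBgn0000046, plus strand of 3R, 13425983 to 13428375) had 2 conservative summits on either side of its body. The one 267 bp upstream of its start had a signal of 79.5 and a score of 906, with 37.6 in replicate 1 and 33.1 in replicate 2 (35.4 ± 3.18, n = 2). Neither replicate had it thresholded, and it was not in the optimal list. The minus-strand gene lncRNA:CR45591 ends 117 bp from this summit, whose nearest annotated start was that of Act87E. The summit behind Act87E, 148 bp past its end, was stronger, at 113, and was in the optimal list. Its replicates differed most among the members, with 36.1 in replicate 1 and 69.9 in replicate 2 (53.0 ± 23.9, n = 2), and replicate 2 alone had it thresholded. It lies 344 bp from the end of yrt, a cell polarity gene that runs towards it on the other strand.

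Act57B (FBgn0000044, plus strand of 2R, 20944021 to 20946431) had 1 conservative summit, 3995 bp upstream at 20940026. The signal was 68.1 with a score of 902, at rank 2690, with 31.5 in replicate 1 and 38.5 in replicate 2 (35.0 ± 4.89, n = 2), neither thresholded. It was not in the optimal list. Of genes with a conservative summit, 5.28% had a highest signal this low or lower. The call at Act57B was the weakest of the 7.

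Tm1 (FBgn0003721, plus strand of 3R, 15278220 to 15308779) had a conservative summit of 180, at rank 735, with 83.4 in replicate 1 and 89.5 in replicate 2 (86.4 ± 4.27, n = 2), both thresholded. It lay 2796 bp upstream of the body, between the starts of CG4338 at 98 bp and of Cp190, an insulator protein gene, at 183 bp. No thresholded summit was within the body of Tm1. The highest ranked summits there reached 66.8 (score 307) and 54.7 (score 106), in introns.

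Mhc (FBgn0264695, plus strand of 2L, 16766566 to 16788766) had no thresholded summit in any list. The highest of its 30 ranked summits, 2 bp from a start, had a signal of 58.0 and a score of 350, with 30.2 in replicate 1 and 22.6 in replicate 2 (26.4 ± 5.37, n = 2). That placed Mhc at the 54.4 percentile of protein-coding genes by highest ranked signal, and twi was at 46.2. The median over those genes was 54.4. Neither stood apart from protein-coding genes in this ranking, which was not matched for window length. The windows were 32.2 kb for Mhc and 73.0 kb for twi, against a median of 12.2 kb over protein-coding genes.

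**Figure D4:**
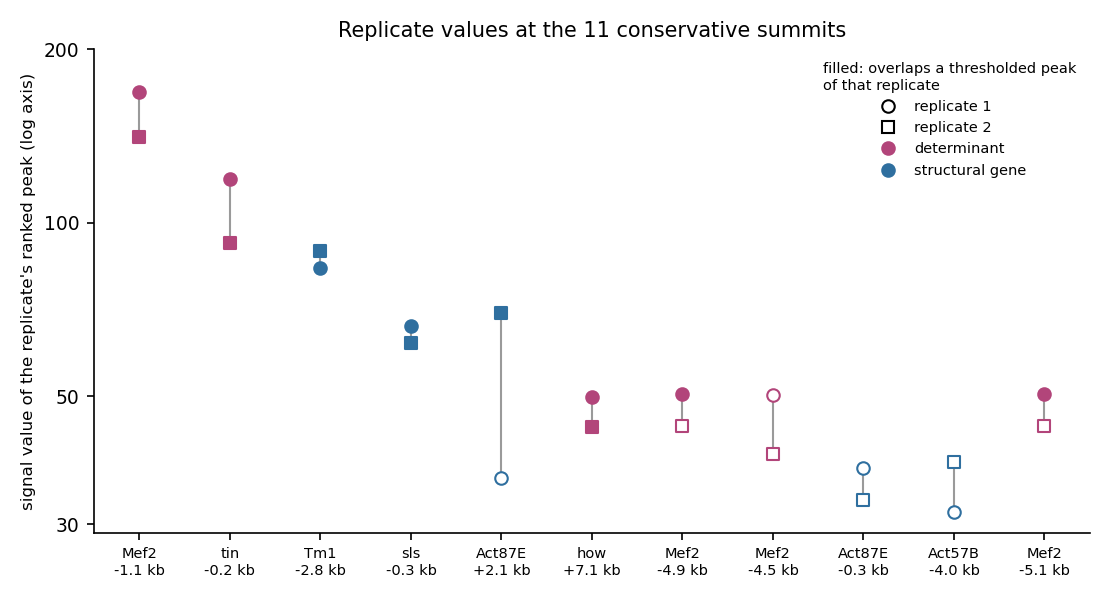
Signal of the matched peak in the ranked list of replicate 1 (circles) and replicate 2 (squares) at the 11 conservative summits, on a log axis, in order of pooled signal. Labels give the gene and the distance in kb from its nearest own start, negative upstream, and filled symbols overlap a thresholded peak of that replicate. The pair at Act87E +2.1 kb, behind the gene, lies farthest apart, at 36.1 and 69.9.

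All 11 conservative summits matched a ranked peak in both replicates, as did 99.1% of all conservative peaks. Of the 11, 7 overlapped a thresholded peak of replicate 1, against 61.3% of all peaks, and 6 one of replicate 2, against 64.7%. Both replicates supported 5, against 51.2%, and neither supported 3, since 8 had either, against 74.9%. The log2 ratio of replicate 2 to replicate 1 ran from −0.37 at tin to 0.95 behind Act87E, with a median of −0.18. Over 3116 peaks the median was 0.09 with an SD of 0.42, and 2.57% had a ratio as high as that behind Act87E. At 8 of the 11 the value of replicate 1 was the higher one. Since the weak overlapping summit of Mef2 matches the replicate peaks of its neighbour, these counts take 1 pair of peaks in duplicate. Without it, of 10 summits, 6 overlapped a thresholded peak of replicate 1, 6 one of replicate 2, 5 both and 7 either, and replicate 1 was higher at 7.

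To compare determinants with structural genes, the highest signal per gene was taken. The 3 determinants with a conservative summit had 322 (Mef2), 208 (tin) and 97.2 (how), with a median of 208. The 4 structural genes had 180 (Tm1), 140 (sls), 113 (Act87E) and 68.1 (Act57B), with a median of 126. The ranges overlapped, and the log2 difference of the medians was 0.72. Over ranked summits, with all 5 genes in each class, the medians were 97.2 for determinants and 113 for structural genes, a log2 difference of −0.22. The direction thus differed between the thresholded and the ranked list in this comparison. With each replicate's ranked list the difference was 0.41 in replicate 1 and −0.48 in replicate 2. Counting only summits nearest to a member's own start, which leaves out those at Pal1 and CG4338, gave −0.22 for thresholded summits. No difference between the classes held across these measures.

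The positions of the 11 summits were close to those of all peaks. Within 500 bp of any TSS there were 5, against 41.1%, in introns 4, against 41.7%, and between genes 2, against 13.4%. None lay in a UTR or a coding exon, as for nearly all peaks. Of the 5 near a TSS, the start belonged to the member itself at tin, sls and Act87E, and to Pal1 and CG4338 for Mef2 and Tm1. The median signal of the 11 was 97.2, against 107 for the list.

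Sequence around the summits was rich in A and T. The median over the 11 windows, each reaching 50 bp to either side of a summit, was 68.3%, from 51.5% at the weak overlapping peak of Mef2 to 81.2% at Tm1, against 66.3% over all 3143 windows. The flanks had 56.4% at the members and 56.9% over all summits, and 10 of 11 windows exceeded their own flanks, against 71.2%. The share of windows with a run of A or T, given with the sequences above, was near that of the whole list.

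**Figure D5:**
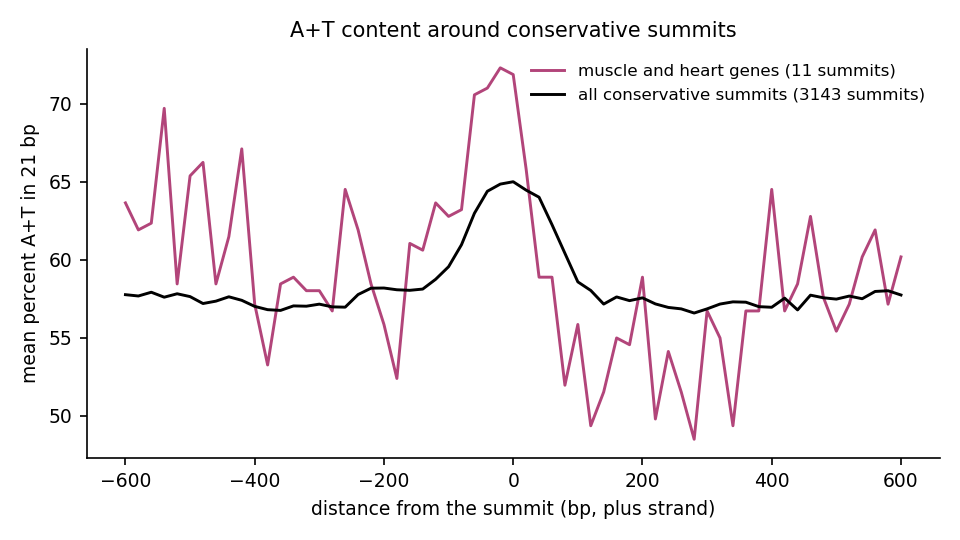
Mean percent A+T in 21 bp windows (vertical axis) by distance from the summit in bp on the plus strand, for the 11 summits at muscle and heart genes and for all 3143 conservative summits. Both lines have their highest stretch near the summit, and the line of 11 summits is the more ragged.

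Motifs of muscle regulators were searched on both strands of the same windows. The E-box CANNTG, bound by basic helix-loop-helix factors, was in 5 of 11 windows, against 37.9% of all. Its form CATATG, which Twist is known to bind and which also counts as CANNTG, was in 2 of 11, at tin and before Act87E, against 3.85%. The form CAAGTG, which Tinman is known to bind, was in none, against 5.63%, and the MEF2 consensus in none, against 6.11%. The GATA factor consensus, GATA with an A or T before it and an A or G after it, was in 3 windows, against 21.5%. The repeat GAGAG was in none, against 11.1%, and TATCGATA in none, against 0.668%. A match is a description of these letters, and with 11 windows a count of 2 sets nothing apart.

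A wider list of 76 muscle and heart genes placed the members among related genes. Of these, 31 had a conservative summit in the body or within 5 kb (40.8%, against 33.2% of all protein-coding genes). These shares are not matched for gene length. Among the 26 with bodies under 5 kb, 6 had one, against 28.6% of all protein-coding genes of that length. Among the 22 over 20 kb, 14 did, against 53.7%. In the thresholded lists of both replicates, 18 of the 76 had one (23.7%, against 22.2%), near the share of all genes. Attachment genes, which link muscle to tendon, had 7 of 10, fusion genes 5 of 10, mesoderm and heart regulators 13 of 31 (41.9%), and contractile and sarcomere genes 6 of 25 (24.0%). Among the regulators, a pair of genes was counted through the same summit. Sarcomere genes had shorter bodies, with a median of 4.97 kb against 19.3 kb for attachment genes, and the part of length in these counts was not tested. A summit within 500 bp of the gene's own start was found at 7 of the 76 (9.21%, against 10.1% of all protein-coding genes), which is near the background.

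The highest summit of the wider list was in the window of kirre, a cell adhesion gene of founder myoblasts, with a pooled signal of 773 (383 ± 11.0 over the replicates, n = 2), but it lay 158 bp from a start of Syx4. The next, at Strn-Mlck, a myosin light chain kinase gene, had 624 (314 ± 33.7) and lay 86 bp from a start of CG8320. The T-box gene org-1 followed with 365 (182 ± 24.0), 363 bp from its own start. The integrin beta subunit gene mys had 294 (148 ± 32.3) in an intron, 1974 bp from its start. The LIM homeobox gene tup had 225 (104 ± 27.2), 108 bp from a start of CG10602. The adhesion adaptor gene stck had 208 (112 ± 28.0), the zinc finger gene zfh1 194 (87.1 ± 25.7), and the actin-capping gene tmod 184 (92.8 ± 20.3). As at Mef2 and Tm1, several of these strongest summits (kirre, Strn-Mlck and tup) lay at the start of another gene.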

How the data were processed

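The deposited files are peak lists made by the authors on dm6 from alignments of the samples and a control, per the file headers and deposited descriptions. The sources used here name no aligner, caller or settings. Signal values, per the deposited layout, are the authors' measure of peak strength in caller units. The score deposited by the authors is the IDR score. Summits are column 2 plus column 10 plus 1, in 1-based coordinates. Genes came from Ensembl release 115, with transposon copies left out, and sequence from RefSeq. Replicate values are from the ranked peak of each replicate that overlaps by at least 1 bp and has the nearest summit. No p-values were computed, because 1 group of 2 replicates gives no comparison between conditions. Counts were checked on simulated peaks. The named genes were all members, the 8 strongest genes of the wider list, and genes whose start is nearest to a member's summit or that neighbour it. Members, lists and motifs were chosen with earlier results of these data known. Alternatives were other windows, the optimal list, a stricter signal, each replicate alone, and 2 added after seeing the data. Analyses used Python 3.11.15, pandas 2.3.3 and numpy 2.4.6.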

Additional observations from a re-analysis of the deposited data

How the results depend on the processing

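With gene bodies alone, without the flanking 5 kb, 2 of 10 members had a conservative summit, 4 summits were assigned in all, and 16 genes of the wider list had one. Requiring a signal at or above the list's median left 5 summits and 19 wider genes. The share of all protein-coding genes was not computed under either setting, so these drops cannot be read as particular to muscle genes. Counting only summits nearest to the gene's own start, chosen after seeing the data, left 19 of the 76 wider genes. Over all protein-coding genes, 14.5% had their own start nearest to a conservative summit, at any distance, against 33.2% with a summit in the window. These shares are not matched for gene length. Each replicate's own list had 6 summits at members. With a TSS window of 250 bp, 3 of 11 summits were near a start. The class difference for thresholded summits was 0.50 with 10 kb, 0.13 with the optimal list, 0.92 at or above the median signal, 1.07 with how in neither class, −0.22 with own starts and −0.28 with the median of all summits per gene. It ran from 0.40 to 0.67 without a replicate, and gene bodies alone gave no value. The ranked difference was −0.52 with 10 kb, 0.92 with gene bodies alone, 0.54 with 2 kb, 0.20 with how in neither class and 0.14 with the median of all summits, and ran from −0.48 to 0.41 without a replicate. The causes were not tested. The other counts of members and summits stayed within 1.5 times. Depth is unknown, and 2 replicates limit the precision. No paired analysis was possible because there is a single group.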
